A study of Arabidopsis thaliana with 9 samples.

Results

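ORA47 and 6 related genes of Arabidopsis thaliana were followed in leaves before wounding and at 30 and 60 min after it. They are ORA47 (AT1G74930, also ERF018), ERF017 (AT1G19210), DREB26 (AT1G21910), ERF016 (AT5G21960), ERF019 (AT1G22810), ERF020 (AT1G71520) and ERF014 (AT1G44830). They were taken by gene identifier and are 7 of the 27206 genes in the deposited count table. Polyadenylated RNA had been sequenced from leaves of wild-type Col-0, the reference accession of the species, with no transgene or mutation in any group. The groups were 3 samples taken before wounding (0 min), 3 taken 30 min after wounding and 3 taken 60 min after wounding, which the series describes as biological replicates. All 9 samples came from plants grown in soil in a short-day room. The labels name no unwounded leaves harvested at 30 or 60 min, and the effects of wounding and of the hour of day therefore cannot be told apart.

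These proteins belong to the AP2/ERF transcription factors of plants, and within them to the subgroup called DREB A-5 or ERF group II. Proteins of this subgroup bind DNA through a single AP2 domain. ORA47 is known to act downstream of the jasmonate receptor COI1 and the transcription factor MYC2, and to raise the expression of genes that make jasmonate, the wound hormone of leaves. ERF019 has been studied in drought, senescence and pathogen responses, ERF014 in pathogen responses, and DREB26 as a factor that alters growth when overproduced. ERF016, ERF017 and ERF020 are less well described.

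In the TAIR10.1 RefSeq annotation, 6 of the 7 genes lie on chromosome 1 and ERF016 lies on chromosome 5. Each of the 7 has 1 exon, and these exons span 807 to 1532 bases. Translated from the same annotation, the proteins range from 143 residues in ERF020 to 230 in DREB26, and ORA47 has 195. ORA47 and ERF017 were identical at 68.5% of 165 aligned positions, ORA47 and ERF016 at 67.7% of 99, ERF019 and ERF020 at 67.6% of 136, and DREB26 and ERF014 at 62.9% of 205. Of every member's 50-base stretches, at least 99.6% occurred once in the genome, so reads of that length could be placed on 1 copy.

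The 250 bases before the annotated start are shown for 3 members that rose after wounding, 5′ to 3′ on the gene's own strand, from TAIR10.1. Capitals mark matches on either strand to any of 5 short motifs: the G-box bound by MYC2 (CACGTG), the rapid stress response element (CGCGTT), the core of the drought-responsive element bound by many DREB factors (CCGAC), the W-box core bound by WRKY factors (TTGAC) and the GCC box bound by many ERF factors (GCCGCC). The windows are chr1:28143601-28143850 on the plus strand for ORA47, chr1:8075038-8075287 on the minus strand for ERF019 and chr5:7259569-7259818 on the minus strand for ERF016.
ORA47: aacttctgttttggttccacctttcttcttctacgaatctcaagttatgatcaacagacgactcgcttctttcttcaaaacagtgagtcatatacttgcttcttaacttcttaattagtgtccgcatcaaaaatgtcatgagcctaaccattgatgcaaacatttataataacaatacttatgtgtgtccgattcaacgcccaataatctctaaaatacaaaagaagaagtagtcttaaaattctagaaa
ERF019: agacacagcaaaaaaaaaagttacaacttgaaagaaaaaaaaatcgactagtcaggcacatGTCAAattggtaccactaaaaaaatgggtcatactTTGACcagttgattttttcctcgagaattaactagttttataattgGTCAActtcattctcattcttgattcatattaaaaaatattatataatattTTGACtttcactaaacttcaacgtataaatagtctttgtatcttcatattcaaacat
ERF016: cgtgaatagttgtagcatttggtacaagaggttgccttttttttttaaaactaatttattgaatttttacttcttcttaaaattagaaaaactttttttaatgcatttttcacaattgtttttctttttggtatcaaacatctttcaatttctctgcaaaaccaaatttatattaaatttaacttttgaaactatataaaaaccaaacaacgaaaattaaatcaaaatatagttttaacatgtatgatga
The ERF019 window held 4 matches to the W-box core, whose first bases stood at −189, −154, −108 and −57 from the gene start. Of the 27443 windows of this length in the annotation, 0.721% held 4 or more such matches and 44.9% held at least 1. The cut of 4 was taken from the ERF019 window itself, so the share above it is a description. A or T made up 72.8% of the ERF019 window, against a median of 68.8% over all windows. The ORA47 and ERF016 windows held no match to any of the 5 motifs. Among all windows, 6.49% held the G-box, 2.59% the rapid stress response element, 12.0% the drought-responsive core and 1.87% the GCC box. Of the other members' windows, ERF020 had 1 G-box, ERF014 had 2 W-box cores, and ERF017 had 2 G-boxes, 1 rapid stress response element and 2 W-box cores. The ERF017 window lies inside the gene model of its neighbour ARF19. No match to one motif overlapped a match to another in the windows described. A match describes letters in the window and is not evidence of binding.

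The deposited values were raw counts of reads per gene. Library totals were 14300929 counts in 30 min replicate 1 and 22072126 to 22970735 in the other 8 libraries. Levels are given as CPM, counts relative to the TMM-scaled library total. A count of 3 in a library, taken as the detection floor, corresponded to 0.114 to 0.209 CPM. Genes for photosynthesis, taken as leaf markers, were detected in every group for 5 of 5 markers, with summed levels before wounding of 144800 to 181000 CPM, at 30 min of 117000 to 149800 CPM and at 60 min of 104500 to 134600 CPM. Summed epidermis and guard cell markers had sums before wounding of 50.7 to 56.9 CPM, at 30 min of 68.8 to 78.0 CPM and at 60 min of 74.9 to 80.8 CPM. Phloem markers held 121 to 175 CPM, 118.4 to 191.8 CPM and 116.7 to 138.5 CPM at these times. Root markers had sums of 29.7 to 34.5 CPM, 16.2 to 20.9 CPM and 11.2 to 17.0 CPM at 0, 30 and 60 min. Of the 4 root markers, 2 were detected over the floor before wounding and 1 at 30 min and at 60 min. EXPA7 and XTH14 were at 0 in every library, so the sums came from the other root markers. Flower markers had sums of 0 to 0.822 CPM, 0.739 to 1.21 CPM and 0.842 to 0.948 CPM at these times. The part of these markers in the results was not tested. In whole leaves, fewer cells of a type and less RNA per cell cannot be told apart.

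After wounding the group split into genes that rose, a gene that fell and genes near the detection floor. ORA47 rose at 30 min, and its 60 min values overlapped those before wounding. ERF019 and ERF016, which had no read before wounding, were present at both later times. DREB26, the most abundant member in every library, fell by 60 min. ERF017, ERF020 and ERF014 held at most 15 counts in any library.

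**Figure D1:**
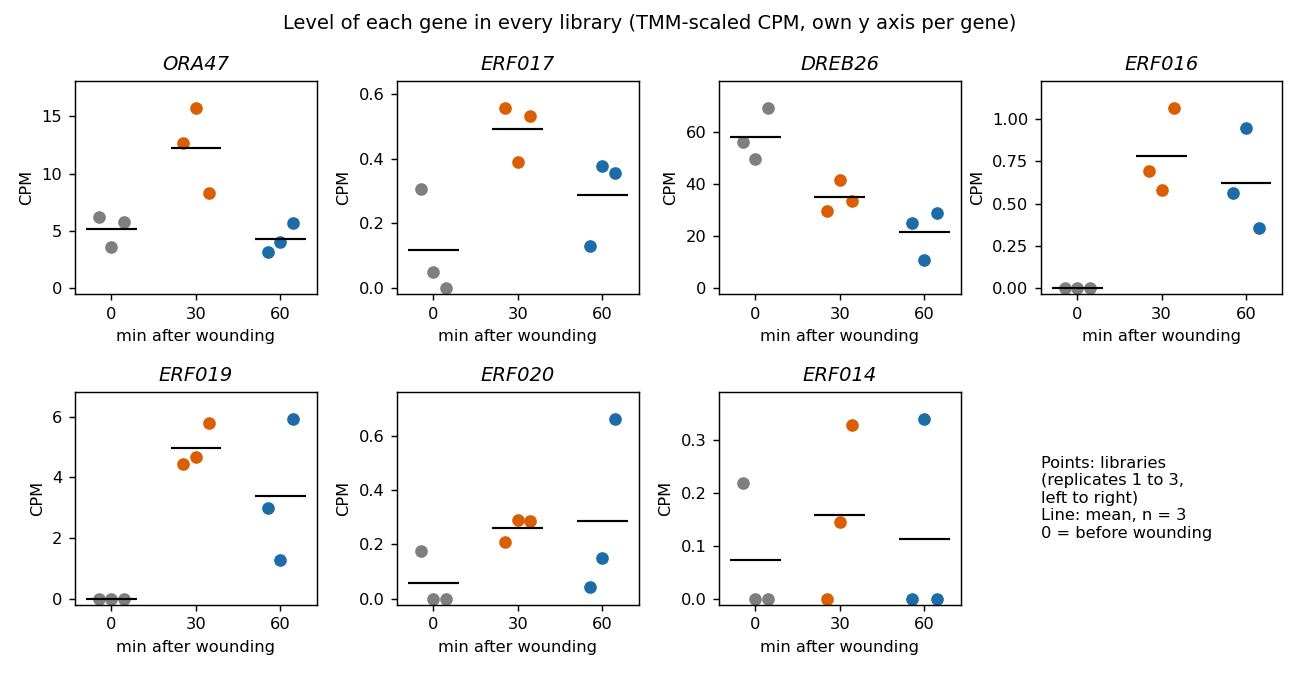
Level of each of the 7 genes in CPM (vertical axis, own scale per panel) in the 9 libraries at 0, 30 and 60 min after wounding; points are libraries and lines are means. ORA47 peaks at 30 min with 8.33 to 15.7 CPM, ERF019 and ERF016 leave 0 after wounding, and DREB26 declines to a mean of 21.4 CPM at 60 min.

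ORA47 had 6.18, 3.58 and 5.77 CPM in the 3 libraries before wounding. At 30 min it had 12.7, 15.7 and 8.33 CPM, and at 60 min 3.10, 4.05 and 5.71 CPM. Every library at 30 min lay above every library of the other groups, while 60 min and before-wounding libraries overlapped. The mean was 12.2 ± 3.72 CPM at 30 min, against 5.18 ± 1.40 CPM before wounding (SD, n = 3 each), a log2 change of 1.24 (SE 0.30, adjusted p = 0.00727, edgeR quasi-likelihood test). At 60 min the mean was 4.29 ± 1.32 CPM, and the log2 change from before wounding was −0.27 (SE 0.30, adjusted p = 0.528 in edgeR). Tested directly, ORA47 was 2.85-fold lower at 60 min than at 30 min (log2 change −1.51, SE 0.30, adjusted p = 0.0186 in edgeR). This last call was lost without 30 min replicate 1 (adjusted p = 0.0812), without 30 min replicate 2 (0.0726) or without 60 min replicate 1 (0.114), with log2 changes of −1.30 to −1.49. The counts behind these levels were 72 to 324 per library. A short gene model on the opposite strand, AT1G74929, covers 8.4% of ORA47 and held 2 to 9 counts per library.

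ERF019 had 0 counts in all 3 libraries before wounding. It had 64, 96 and 141 counts at 30 min, which are 4.46, 4.66 and 5.79 CPM. At 60 min it had 69, 34 and 134 counts, which are 2.97, 1.29 and 5.94 CPM. Both wounded groups lay clear of the group before wounding and overlapped each other. With the highest floor of the libraries before wounding in place of 0, the 30 min level was at least 33.0-fold higher than before wounding (adjusted p = 3.76e-05 in edgeR). For 60 min this bound was at least 22.6-fold higher (adjusted p = 6.24e-05 in edgeR). Means were 4.97 ± 0.718 CPM at 30 min and 3.40 ± 2.35 CPM at 60 min (SD, n = 3 each). Between these times the log2 change was −0.56 (SE 0.46, adjusted p = 0.718 in edgeR). Leaving out 60 min replicate 3 gave −1.24 for that change, and leaving out 60 min replicate 2 gave −0.16. AT1G05767 and AT1G22800 overlap ERF019 on the opposite strand, and the larger of these overlaps covers 97.9% of its gene model. AT1G05767 is not in the count table. With the strand setting of the counting not given, reads of either strand cannot be told apart, although all 3 libraries before wounding listed ERF019 at 0. AT1G22800, one of the overlapping genes, held 94 to 302 counts per library, against 0 to 141 for ERF019.

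ERF016 likewise had 0 counts in all 3 libraries before wounding. At 30 min it had 10, 12 and 26 counts (0.696, 0.583 and 1.07 CPM), and at 60 min 13, 25 and 8 counts (0.560, 0.947 and 0.354 CPM). Again both wounded groups lay above the group before wounding and overlapped each other. By the same bound, ERF016 was at least 5.19-fold higher at 30 min than before wounding (adjusted p = 0.00121 in edgeR). For 60 min the bound was at least 4.12-fold higher (adjusted p = 0.00162 in edgeR). A count of 0 in the libraries before wounding allows up to 3 counts each, so ERF016 may have been present there at levels under the floor.

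DREB26 had 56.0, 49.4 and 69.1 CPM before wounding. It had 29.5, 41.6 and 33.5 CPM at 30 min and 24.8, 10.7 and 28.8 CPM at 60 min. The 3 groups did not overlap, and each later group lay below the one before it. The mean was 21.4 ± 9.51 CPM at 60 min, against 58.1 ± 10.1 CPM before wounding (SD, n = 3 each), a log2 change of −1.44 (SE 0.28, adjusted p = 0.00165 in edgeR), or 2.72-fold lower. At 30 min the mean was 34.9 ± 6.13 CPM and the log2 change from before wounding was −0.74 (SE 0.28, adjusted p = 0.0662 in edgeR), which missed the threshold of 0.05. That change passed in DESeq2 (adjusted p = 0.0403), without the filter on low counts (0.0406), with the 30 min and before-wounding groups fitted alone (0.00647), without 60 min replicate 2 (0.00422) and without 60 min replicate 3 (0.0471). From 30 to 60 min the log2 change was −0.71 (SE 0.28, adjusted p = 0.294 in edgeR). The summed photosynthesis markers given above were also lower at 60 min than before wounding, and their part in the DREB26 values was not tested.

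ERF017, the closest relative of ORA47 in the group by protein identity, had 7, 1 and 0 counts before wounding. It had 8, 8 and 13 counts at 30 min and 3, 10 and 8 counts at 60 min. In CPM the 30 min libraries, at 0.388 to 0.557, lay above all libraries of the other groups. The log2 change from before wounding was 1.94 at 30 min (SE 0.92, adjusted p = 0.136) and 1.19 at 60 min (SE 0.94, adjusted p = 0.361) in edgeR, and neither passed. Without before-wounding replicate 1, which held 7 of the 8 counts of its group, the change at 30 min was 4.03 (adjusted p = 0.0328 in edgeR). The gene model of ARF19 overlaps that of ERF017 on the same strand. ARF19 held 216 to 415 counts per library, against 0 to 13 for ERF017. No strand setting separates reads of genes on the same strand, and the part of this overlap in the low ERF017 counts was not tested.

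ERF020 and ERF014 did not pass the filter on low counts. ERF020 had 4, 0 and 0 counts before wounding, 3, 6 and 7 at 30 min and 1, 4 and 15 at 60 min. ERF014 had 5, 0 and 0 counts before wounding, 0, 3 and 8 at 30 min and 0, 9 and 0 at 60 min. Most of these values were near the floor of 3 counts, and the groups overlapped except for ERF020 at 30 min, at 0.209 to 0.291 CPM, against 0 to 0.175 CPM before wounding. In a fit with no filter, ERF020 had log2 changes of 2.02 at 30 min (adjusted p = 0.321) and 2.11 at 60 min (adjusted p = 0.266), and ERF014 of 1.09 (adjusted p = 0.683) and 0.59 (adjusted p = 0.834). At this depth neither gene passed the test at either time.

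Of the 7 genes, 5 passed the filter and were tested. An F test for any difference among the 3 times called 4 of them, all but ERF017, against 32.1% of the 17622 genes tested. At 30 min against before wounding, 3 were called higher (ORA47, ERF019 and ERF016), against 14.5% of all genes tested, and 2 were not called. The count called lower at 30 min was 0 in edgeR, against 13.4% of all genes. It was 1 (DREB26) at an unadjusted p under 0.05 and 1 in DESeq2. All shares of all genes given here are those of edgeR at an adjusted p under 0.05. At 60 min against before wounding, 2 were called higher (ERF019 and ERF016), against 17.1% of all genes, and 1 lower (DREB26), against 15.3%. At 60 min against 30 min, 1 was called lower in edgeR (ORA47), against 1.30% of all genes, and 0 higher, against 0.721%. DESeq2 and an unadjusted p under 0.05 also gave 0 higher. In either direction, 28.0% of all genes were called at 30 min and 32.4% at 60 min against before wounding, and 2.02% at 60 min against 30 min. Over the 5 tested genes the median log2 change was 1.94 at 30 min and 1.19 at 60 min from before wounding, and −0.71 at 60 min against 30 min. The medians over all genes tested were 0.02, 0.06 and 0.02. The members' medians at 30 and 60 min from before wounding are the values of ERF017, which was called at neither time. ERF019, ERF016 and ERF017 passed the filter only through libraries taken after wounding. With no read before wounding, ERF019 and ERF016 could only come out higher. The F test count, the counts called higher and these medians are therefore a description and not support for a change or rise of the group. The comparisons at 30 and 60 min share the libraries taken before wounding.

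Set on a scale that allows genes to be compared, CPM per kilobase of exon, DREB26 was the highest member in all 9 libraries. It averaged 41.4 ± 7.16 CPM per kilobase before wounding, 24.8 ± 4.36 at 30 min and 15.2 ± 6.77 at 60 min (SD, n = 3 each). ORA47 averaged 4.29 ± 1.16, 10.1 ± 3.08 and 3.55 ± 1.09 CPM per kilobase at these times, and ERF019 0, 6.16 ± 0.889 and 4.21 ± 2.92. ORA47 and ERF019 overlapped on this scale at 30 min, with 6.90 to 13.0 for ORA47 and 5.52 to 7.17 for ERF019, and also at 60 min, with 2.57 to 4.73 for ORA47 and 1.60 to 7.36 for ERF019. The remaining 4 genes had mean levels of at most 0.551 CPM per kilobase at any time.

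The level summed over the 7 genes averaged 45.9 ± 7.91 CPM per kilobase before wounding, 42.7 ± 6.14 at 30 min and 24.2 ± 9.89 at 60 min (SD, n = 3 each). Within that sum the members' shares differed between times. DREB26 held between 87.1% and 92.1% of it before wounding, between 54.8% and 59.8% at 30 min and between 53.6% and 72.1% at 60 min. ORA47 made up 9.27% ± 1.75 before wounding, 23.6% ± 5.52 at 30 min and 16.1% ± 6.87 at 60 min. ERF019 made up 0%, 14.7% ± 3.18 and 16% ± 5.26 at these times. These shares are given as a description, with no test, since a fall of DREB26 alone raises the shares of the others.

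**Figure D2:**
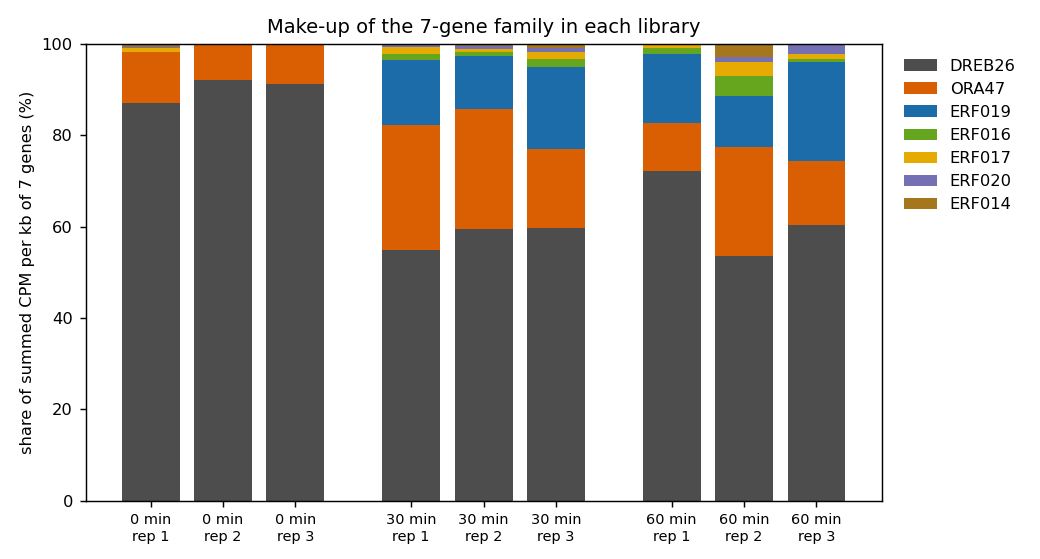
Share of each gene, in percent, in the summed CPM per kilobase of the 7 genes in each of the 9 libraries at 0, 30 and 60 min. DREB26 makes up 87.1% to 92.1% of the sum before wounding, and ORA47 and ERF019 hold larger shares at 30 min.

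ORA47, ERF019 and DREB26 each had a relative of similar protein sequence that was near the floor. ERF017, the relative of ORA47, averaged 0.132, 0.551 and 0.321 CPM per kilobase at 0, 30 and 60 min, with the same-strand overlap with ARF19 given above. ERF020, the relative of ERF019, averaged 0.0650, 0.292 and 0.319 CPM per kilobase, and before wounding, where ERF019 had no read, both were at or near 0. ERF014, the relative of DREB26, averaged 0.0840, 0.182 and 0.131 CPM per kilobase. The means before wounding rest almost wholly on before-wounding replicate 1, which held 7 of the 8 counts of ERF017, all 4 of ERF020 and all 5 of ERF014.

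The other group II genes, 8 relatives that include the DEAR and RAP2 factors, several of which carry a repression motif called EAR, were all tested. At 30 min against before wounding 4 of the 8 were called higher, against 14.5% of all genes tested, and at 60 min 5, against 17.1%. Their median log2 changes were 1.10 at 30 min and 1.22 at 60 min, beside 0.02 and 0.06 over all genes tested. RAP2.9 and CEJ1, both called higher, passed the filter only with the libraries taken after wounding. These counts and medians are therefore a description and not support for a rise of the list. None of the 8 was called lower in edgeR, against 13.4% of all genes tested at 30 min and 15.3% at 60 min. DESeq2 and an unadjusted p under 0.05 also gave none lower at either time. Between 60 and 30 min 0 were called in edgeR, against 2.02% of all genes tested in either direction. At an unadjusted p under 0.05, 1 was higher and 1 lower, and DESeq2 called 1 lower. The median log2 change there was −0.12.

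RAP2.10 had 2.02, 1.74 and 3.31 CPM before wounding, 18.2, 23.8 and 19.3 CPM at 30 min and 18.9, 18.5 and 19.1 CPM at 60 min. Its log2 change from before wounding was 3.12 at 30 min (SE 0.23, adjusted p = 6.82e-07) and 3.00 at 60 min (SE 0.23, adjusted p = 8.91e-07) in edgeR. The wounded groups overlapped each other, unlike those of ORA47. RAP2.9 had 0.439, 0.435 and 0.351 CPM before wounding, 4.94, 5.0 and 8.70 CPM at 30 min and 11.5, 9.17 and 15.9 CPM at 60 min. Its log2 change was 3.91 at 30 min (adjusted p = 4.32e-06) and 4.88 at 60 min (adjusted p = 6.05e-07) in edgeR. CEJ1, a repressor studied in cold and jasmonate responses, had 0.614, 0.387 and 0.803 CPM before wounding, 8.28, 8.45 and 7.27 CPM at 30 min and 2.93, 2.01 and 4.92 CPM at 60 min. Its log2 change was 3.72 at 30 min (adjusted p = 1.21e-05) and 2.44 at 60 min (adjusted p = 0.000327) in edgeR. Like those of ORA47, its 60 min libraries all lay below its 30 min libraries, and that log2 change, −1.29 (SE 0.33), had an adjusted p of 0.0653 in edgeR. DEAR3, named after its values were seen, rose at both times, and RAP2.1, named likewise, rose at 60 min (log2 change 0.95, adjusted p = 0.0155 in edgeR). The RAP2.1 call was lost without before-wounding replicate 2 (adjusted p = 0.0809) or without 60 min replicate 3 (0.0824).

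**Figure D3:**
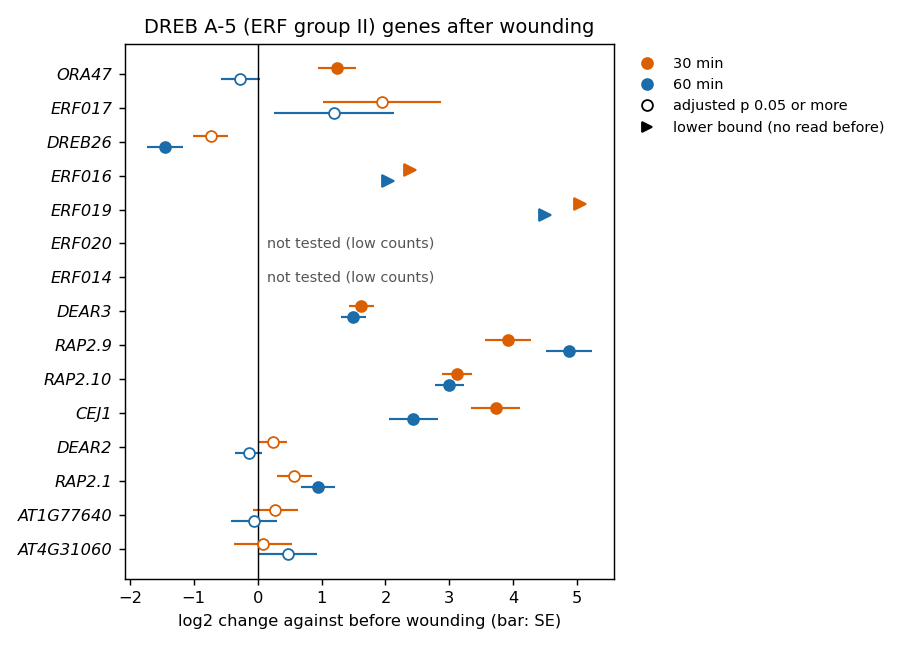
Log2 change from before wounding, with its standard error, for the tested members and the other group II genes at 30 and 60 min; open circles missed the threshold and triangles are lower bounds of genes with no read before wounding. DREB26 stands alone among the called genes in being lower, at −1.44 at 60 min.

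Genes of jasmonate synthesis, a process that ORA47 is known to raise, were followed as a list of 16, all tested. They were listed as genes of the pathway, and not each of them is a known target of ORA47. At 30 min 14 were called higher than before wounding, against 14.5% of all genes tested, and at 60 min also 14, against 17.1%, with median log2 changes of 1.91 and 1.43. Of these, AOC3 and DAD1, the latter named after its values were seen, passed the filter only through libraries taken after wounding. DAD1 had no read before wounding and could only come out higher, and AOC3 held at most 1 count per library there. These counts and medians are therefore a description and not support for a rise of the list. AOC4, an allene oxide cyclase, and JMT, which methylates jasmonate, were called at neither time and are named after their values were seen. The count called lower was 0 at 30 min in edgeR, against 13.4% of all genes tested. DESeq2 and an unadjusted p under 0.05 gave 0 as well. At 60 min the count called lower was 0 in edgeR, against 15.3% of all genes tested. It was 1 (JMT) at an unadjusted p under 0.05 and in DESeq2. At 60 min against 30 min, where ORA47 fell, 4 of the 16 were called lower, against 1.30% of all genes tested, namely LOX3, LOX4, OPR3 and OPCL1, of which LOX4 and OPCL1 are named after their values were seen. None was called higher there in edgeR, against 0.721% of all genes tested, or in DESeq2, with 1 at an unadjusted p under 0.05. The median log2 change at 60 min against 30 min was −0.12.

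OPR3, the reductase of jasmonate synthesis, had 5.13, 3.53 and 3.66 CPM before wounding, 194.1, 197.2 and 258.2 CPM at 30 min and 101.5, 122.7 and 109 CPM at 60 min. Like ORA47 it was highest at 30 min, with log2 changes of 5.71 at 30 min and 4.75 at 60 min from before wounding. The log2 change at 60 min against 30 min was −0.96 (adjusted p = 0.00778 in edgeR), and that call was lost without 60 min replicate 1 (adjusted p = 0.0584) and with scaling by library size alone (0.0683). LOX3, a lipoxygenase of the first step, had 11.5, 9.67 and 11.9 CPM before wounding, 149.4, 194.8 and 214.5 CPM at 30 min and 77.7, 79.8 and 91.0 CPM at 60 min. Its log2 change was 4.08 at 30 min (SE 0.18) and 2.91 at 60 min (SE 0.17) from before wounding, and −1.17 at 60 min against 30 min (adjusted p = 0.00144 in edgeR). Unlike ORA47, both stayed above their range before wounding at 60 min. AOC3, an allene oxide cyclase, had 1, 0 and 1 counts before wounding, 360, 468 and 579 at 30 min and 450, 348 and 431 at 60 min. Its pooled level at 30 min was 752 times that before wounding, with a 95% exact counting interval of 208 to 6220, and at 60 min 540 times, with an interval of 149 to 4460. AOC3 has close copies in the genome, and reads shared with them were not measured here.

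**Figure D4:**
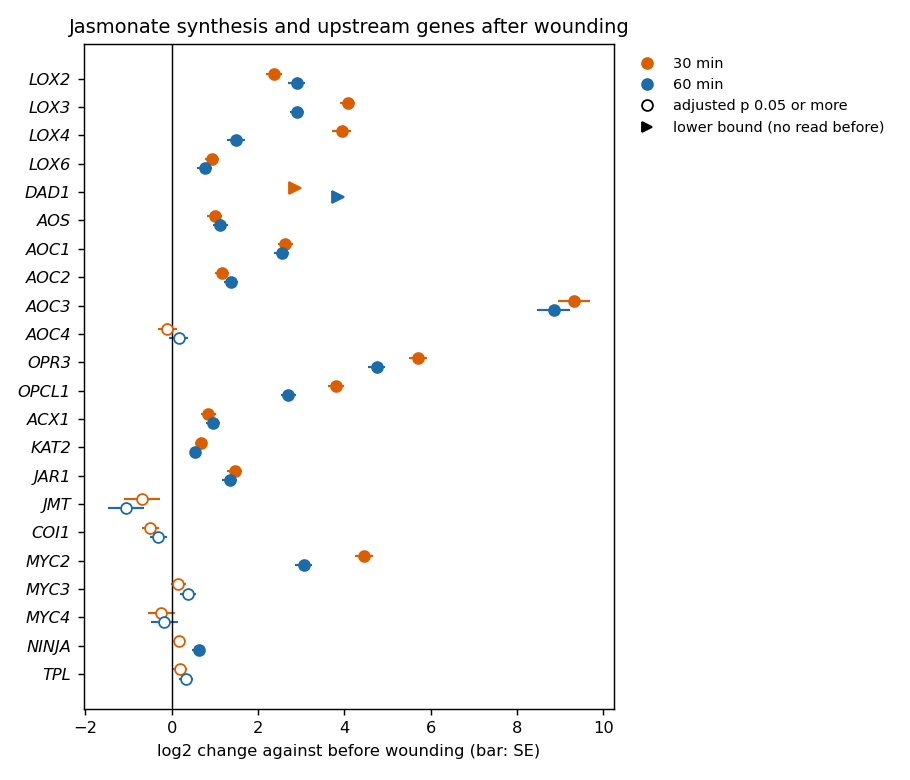
Log2 change from before wounding, with its standard error, of the jasmonate synthesis genes (top 16) and the upstream regulators (bottom 6) at 30 and 60 min; open circles missed the threshold and triangles are lower bounds of a gene with no read before wounding. OPR3 stands at 5.71 and 4.75 and MYC2 at 4.46 and 3.06.

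Of 6 genes that act upstream of ORA47 in jasmonate signalling, all tested, 1 was called higher at 30 min (MYC2), against 14.5% of all genes tested, and 2 at 60 min (MYC2 and NINJA), against 17.1%. The count at 30 min is near the share over all genes. The count called lower at 30 min was 0 in edgeR, against 13.4% of all genes tested. It was also 0 in DESeq2, with 1 (COI1) at an unadjusted p under 0.05. Median log2 changes were 0.16 at 30 min and 0.35 at 60 min from before wounding. MYC2 had 7.46, 4.35 and 6.32 CPM before wounding, 114.2, 156.3 and 128.9 CPM at 30 min and 47.7, 47.5 and 56.6 CPM at 60 min. It was the upstream gene called lower at 60 min against 30 min, with a log2 change of −1.40 (SE 0.18, adjusted p = 0.00126 in edgeR), beside −1.51 for ORA47. From before wounding MYC2 changed by 4.46 at 30 min (SE 0.21, adjusted p = 1.19e-08) and 3.06 at 60 min (SE 0.20, adjusted p = 2.93e-07) on the log2 scale in edgeR. The gene AT1G32630 covers 98.5% of MYC2 on the opposite strand and held 46 to 139 counts per library, against 90 to 3220 for MYC2. NINJA, the adaptor of the repressors of MYC2, averaged 33.4 CPM at 30 min, 45.9 CPM at 60 min and 29.8 CPM before wounding, with a log2 change of 0.62 at 60 min (SE 0.16, adjusted p = 0.00764 in edgeR). COI1 averaged 18.2 CPM at 30 min, 20.7 CPM at 60 min and 25.6 CPM before wounding, with a log2 change of −0.49 at 30 min (SE 0.19, adjusted p = 0.0764 in edgeR).

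The genes whose profile over the 9 libraries was nearest to that of a member were found by the root-mean-square difference of log2 levels, each taken relative to the gene's mean before wounding, among 17617 genes outside the group. For ORA47 the 5 nearest were MPK3, PUP14, AT1G55450, SYP122 and AT1G31130, at distances of 0.288 to 0.321 log2 units. MPK3, a mitogen-activated protein kinase of defence signalling, averaged 61.8 ± 2.49 CPM before wounding, 124.1 ± 15.7 CPM at 30 min and 54.1 ± 11.5 CPM at 60 min (SD, n = 3 each). DREB26 stood at 1.42 from ORA47.

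Nearest to DREB26 was AT5G15780 at 0.240, with means of 77.8, 41.0 and 28.0 CPM at 0, 30 and 60 min. For ERF019, ERF016 and ERF017, which had no or few reads before wounding, the size of the profile is set largely by the prior count of 2 added to each library. The nearest genes by this measure, ERD7 for ERF019, AT5G13210 for ERF016 and WRKY30 for ERF017, are therefore named with no distance. All distances are a description over the same 9 libraries, with no test.

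**Figure D5:**
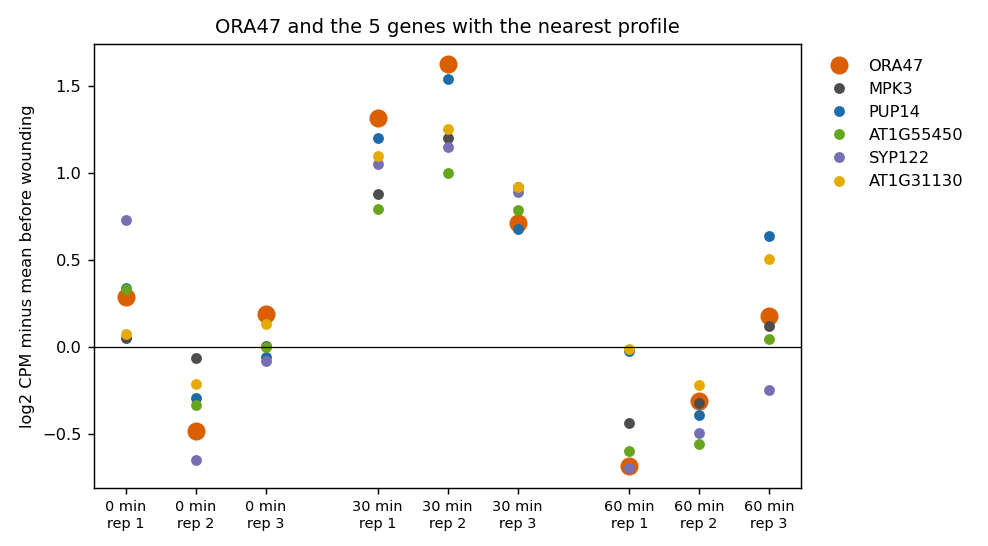
Log2 CPM minus the gene's mean before wounding (vertical axis) of ORA47 (large points) and its 5 nearest genes in each of the 9 libraries. ORA47 and MPK3 both peak at 30 min and lie 0.288 log2 units apart (root mean square).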

How the data were processed

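The authors deposited unnormalized read counts for each gene in 1 table with 0 columns outside these 9 samples. Per the submitters' processing notes, FastQC 0.11.8, Trimmomatic 0.36, HISAT2 2.2.0, featureCounts and TAIR10 were used. Per the labels' protocols, TRIzol was used for extraction and a TruSeq RNA kit for the libraries. Strand setting, annotation and treatment of multi-mapped reads are not given in the sources used here.

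Of 27206 genes, 5636 had no count, and filterByExpr kept 17622 genes holding 99.96% of the counts. One edgeR 4.0.16 quasi-likelihood fit in R 4.3.3 (TMM, group as the only term, all 9 libraries) gave 3 two-sided contrasts, with Benjamini-Hochberg adjustment over all genes tested and a threshold of 0.05. It was tested on simulated data. CPM used TMM-scaled totals and profiles a prior count of 2. Intervals and floors cover counting error only. The p-values weigh a difference between groups against the spread between replicates, estimated from these 9 samples with information shared across genes. Names, exon lengths and sequences came from TAIR10.1, in which 26719 of the genes and all 7 members were found. TAIR10.1 keeps the chromosome sequences of TAIR10, and the count table holds no coordinates. The DREB26 window is not reported here.

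Named were all 7 members, the 3 genes of each list with the smallest F-test p, the 5 genes nearest to ORA47 and the nearest gene to each other tested member. The members and lists were chosen with earlier results of these data known. Alternatives were DESeq2 1.42.0, library size alone, no filter, each library left out, a replicate block, only the compared groups, another threshold and another prior count.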

Additional observations from a re-analysis of the deposited data

Results flagged for a closer look

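ORA47 differed between the wounded times when they were compared directly. Its log2 change was −1.51 at 60 min against 30 min (adjusted p = 0.0186 in edgeR), with 3.10, 4.05 and 5.71 CPM at 60 min and 12.7, 15.7 and 8.33 CPM at 30 min. All 3 libraries at 60 min lay below all 3 at 30 min.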

How the results depend on the processing

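Among members, 1 was called lower at 30 min (DREB26; 0 as reported) with no filter, in DESeq2 or with only the compared groups, and 0 to 1 with each library left out. With only the compared groups 1 member was called higher at 60 min (2 as reported), since ERF016 then failed the filter. At 60 min against 30 min, 0 members were called lower with a replicate block (ORA47 log2 −1.52, adjusted p = 0.0686) or at a threshold of 0.01, and 0 to 1 with each library left out. Other group II genes called at 60 min against 30 min were 0 to 1 higher (RAP2.9 without 30 min replicate 3) and 0 to 1 lower (CEJ1 without 60 min replicate 3), and 1 lower (CEJ1) with no filter or in DESeq2. Of the 5 called higher at 60 min against before wounding, 4 were called at a threshold of 0.01 and 4 to 5 with each library left out (RAP2.1). Jasmonate synthesis genes called lower at 60 min were 1 in DESeq2 and 0 to 1 with a library left out (JMT), and upstream genes lower at 30 min were 0 to 1 (COI1 without 30 min replicate 2). Upstream genes higher at 60 min also included MYC3 with library size alone (adjusted p = 0.0219 in edgeR). TPL was called higher at 60 min without before-wounding replicate 1 (adjusted p = 0.0487 in edgeR). MYC3 and TPL are named after their values were seen. RAP2.10 at 60 min against 30 min was 0.00013 with library size alone (−0.12 with TMM), and COI1 (0.18 with all libraries) ranged over −0.059 (without 30 min replicate 3) to 0.39 (without 30 min replicate 2). OPR3 at 60 min against 30 min lost its call with library size alone (−0.86) and without 60 min replicate 1 (−0.90). The other causes were not tested. Library size alone moved the median log2 change of all genes to 0.12 at 30 min and 0.28 at 60 min from before wounding, and the share of called genes that were higher to 61.3% and 70.9%, against 51.9% and 52.9% with TMM. At 60 min against 30 min the median was 0.13, with a share of 50.8% against 35.7%. In deviations from the group mean, libraries of the same replicate number correlated at −0.366 to 0.156, and those of different numbers at −0.300 to 0.342. These ranges overlap, and deviations centred within each group are tied to one another. The check therefore cannot decide whether the replicate numbers pair the samples. With the block, 4006, 4728 and 223 genes were called at 30 min, at 60 min and between them, against 4930, 5704 and 356 without. ERF017, ERF020 and ERF014 held at most 15 counts per library, so differences in them could be measured only coarsely.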
